A study of Zea mays with 36 samples.

Results

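Genes of the 2 photosystems and of their light-harvesting antenna were followed on cDNA slides that compare RNA of the maize shoot apical meristem (SAM) with RNA of whole seedlings. The members were all probes that the platforms' gene annotation assigns to psad1, psah1, psan1, PSBQ, lhcb5, lhcb6, Cab-m7 or L-FNRII. That choice gave 23 probes with values for 8 genes, of 30329 probes and 732 named genes on both slide sets. Slide set 1 held 7 of them, for 6 genes, and slide set 2 held 16, for 6 genes. A further 10 member spots of slide set 2 had no value, which left psah1 and psan1 with values on slide set 1 alone. lhcb6 and L-FNRII had values on slide set 2 alone.

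In the thylakoid membrane of a chloroplast, light-harvesting proteins pass absorbed energy to photosystem II, which oxidises water, and to photosystem I, which reduces ferredoxin. Ferredoxin-NADP reductase then makes the NADPH used in carbon fixation. The nuclear genes of these proteins are known for high expression in green leaves, whereas plastids of the meristem are undeveloped proplastids.

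All plants were of the maize inbred line B73, grown for 14 days under 15 hours of light at 25 °C and 9 hours of dark at 20 °C. One RNA of each pair came from a pool of 6 to 10 vegetative meristems, cut out by laser together with the P0 and P1 leaf primordia. The other came from a pool of the above-ground parts of 6 seedlings of the same batch, which include the meristem. Each tissue had its own extraction procedure, and the effects of tissue and extraction cannot be told apart. Amplification with T7 polymerase started from about 10 ng, and the 6 pairs were hybridised to 1 slide of each set, with SAM in Cy3 on the odd and in Cy5 on the even replicates. Fewer cells of a type and less RNA per cell cannot be told apart in such pools. The source label of 1 scan (high, replicate 4, slide set 1) gives seedling tissue in both dyes, and the sample name was followed instead.

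Each value below is a log2 ratio of the 2 RNAs, given as the mean of a slide's 3 scans after each scan was set to a median of 0. The tissue in the numerator is not given in the sources used here. The sample titles name SAM first, and markers of the meristem and leaf primordia passed on the positive side for 11 of 13 probes on slide set 1 and 6 of 7 on slide set 2, with 0 on the negative side (0 also at an unadjusted p of 0.05 in limma). The marker probes that did not pass were all of kn1, at −0.22 and 0.30 on slide set 1 and −0.17 on slide set 2. Other kn1 probes passed at 0.81 on slide set 1 and 4.06 on slide set 2. On the basis of the titles and markers, positive ratios are referred to as the SAM side and negative ones as the seedling side, which is the likely direction. Markers of the mature leaf that are not members passed on the seedling side for 6 of 6 probes and 14 of 15. No intensities were used here, so how near the SAM channel of a strongly negative probe lay to its floor cannot be read. A ratio here is a measured value of the slides and not a calibrated fold. Its size also rests on an inferred base of the deposited log.

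In limma with Benjamini-Hochberg adjustment over all probes of a slide set, 5 of the 7 member probes of slide set 1 passed an adjusted p of 0.05 on the seedling side, where 31.0% of all probes did. One member probe (1 of 7) passed on the SAM side, where 31.5% of all probes did, and 1 did not pass. On slide set 2, 13 of 16 member probes passed on the seedling side against 31.2% of all probes. A further 2 passed on the SAM side against 33.4% of all probes, and 1 did not pass. The median of the member probes was −5.91 on slide set 1 and −5.95 on slide set 2, beside 0.04 and 0.03 for all probes. A mean ratio at or below −4 was reached by 4 of 7 and 13 of 16 member probes, and by 3.53% and 3.06% of all probes. The members therefore lay mostly in the far tail of the seedling side, and the members near or above 0 belonged to PSBQ, lhcb5, lhcb6 and Cab-m7, each of which had another probe at −4.99 or lower.

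**Figure D1:**
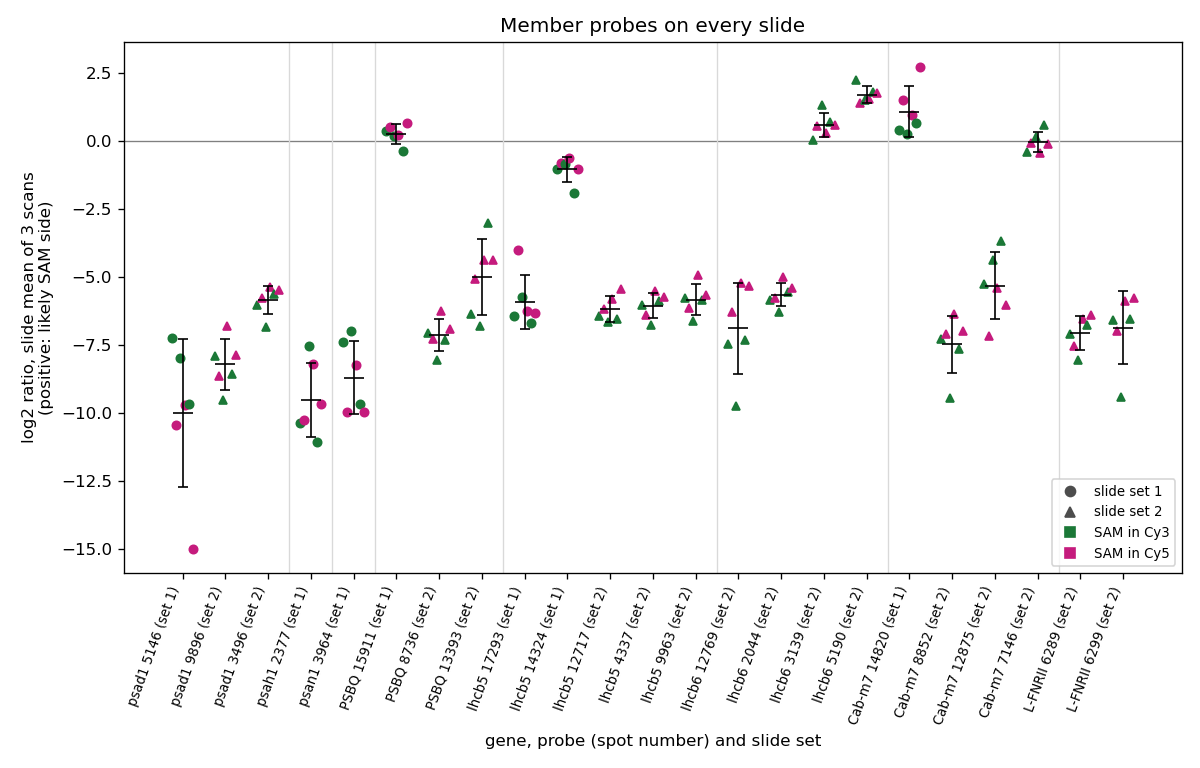
Log2 ratio (y axis) of every member probe (x axis, by gene, spot number and slide set) on each of the 6 slides of its set, with circles for slide set 1, triangles for slide set 2 and colours for the dye of SAM. Black lines are the mean and SD of 6 slides. Of the 23 probes, 17 lay at or below −4 in the mean, and the 6 others lay between −1.04 and 1.71.

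**Figure D2:**
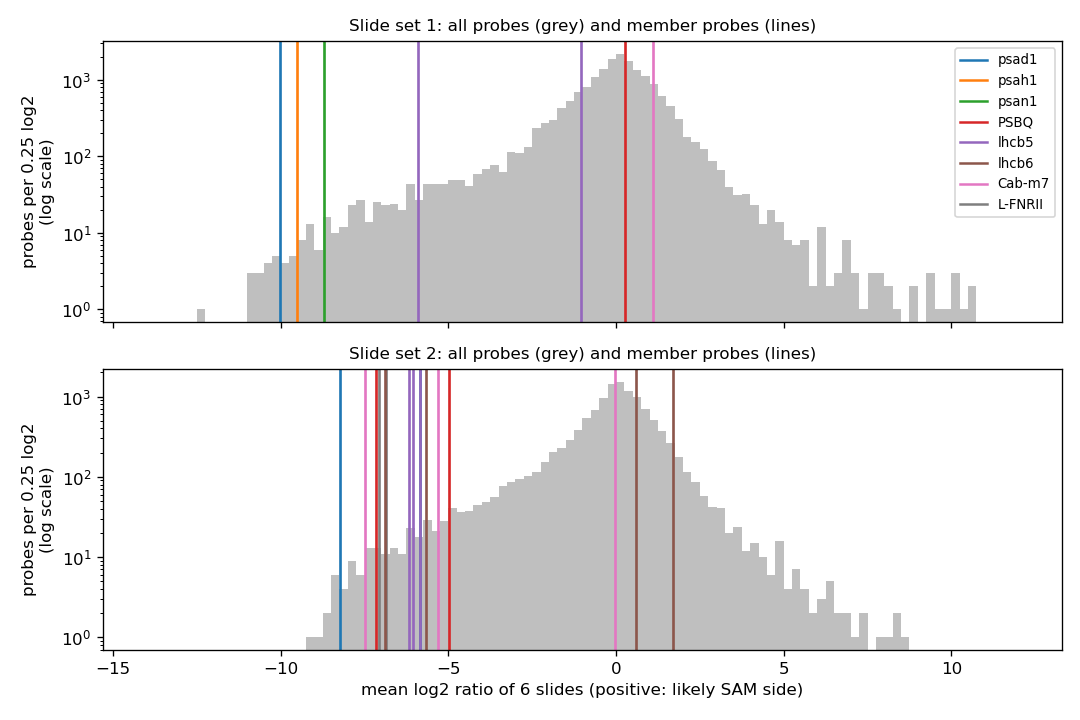
Number of probes (y axis, log scale) by mean log2 ratio (x axis), in grey for all 18302 probes of slide set 1 and all 12027 of slide set 2, with a coloured line at the mean of each member probe. Member lines stand in the left tail, except for PSBQ and Cab-m7 and 1 of the 2 lhcb5 probes on slide set 1, and 2 lhcb6 probes and 1 Cab-m7 probe on slide set 2.

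One slide stood apart on slide set 2. Replicate 3 gave the lowest value for 12 of the 13 member probes below −2, and for 30.4% of all 1097 such probes that passed. In its low scan lhcb6 probe 12769 reached −14.60, Cab-m7 probe 8852 −14.02, psad1 probe 9896 −13.97 and L-FNRII probe 6299 −13.97. Without replicate 3 their limma ratios, fitted beside the dye term, were −6.50, −7.14, −8.00 and −6.39, and all 13 probes still passed in limma. On slide set 1 the lowest slide of the 4 probes below −2 was replicate 5 in 2 of them and replicates 2 and 6 in 1 each.

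Photosystem I was represented by psad1, whose protein docks ferredoxin at the stromal side, psah1, whose protein lies where the antenna of photosystem II can bind, and psan1, whose protein lies at the lumenal side. These 3 genes gave the most negative member ratios of slide set 1. On the 6 slides psad1 (probe 5146) ranged from −14.99 to −7.23, with a median of −9.71 and a mean of −10.01 ± 2.72 (SD, n = 6). Its limma adjusted p was 3.83e-05, and 0.082% of all probes of the set had a more negative mean. All 6 slides lay on the seedling side, and replicate 6 stood lowest.

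The psah1 probe (2377) ranged from −11.08 to −7.54 with a median of −9.95. Its mean was −9.51 ± 1.37 (SD, n = 6; limma adjusted p = 1.20e-05). The psan1 probe (3964) ranged from −9.97 to −6.99 with a median of −8.96, and its mean was −8.70 ± 1.34 (SD, n = 6; limma adjusted p = 8.43e-06). Both lay far on the seedling side on every slide. From psad1 to psah1 and from psah1 to psan1 the means differed by 0.50 and 0.81, less than the SD of these differences over slides (2.87 and 1.21). The order of the 3 subunits was therefore within the spread between slides.

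A pair of probes measured psad1 on slide set 2. Probe 9896 ranged from −9.52 to −6.79 with a median of −8.24 and a mean of −8.22 ± 0.92 (SD, n = 6), the most negative of the 16 members there. Probe 3496 ranged from −6.82 to −5.36 with a median of −5.70 and a mean of −5.85 ± 0.53 (SD, n = 6). Both passed in limma (adjusted p = 5.55e-06 and 2.98e-06), and their ranges overlapped only between −6.82 and −6.79. Within a slide probe 9896 lay lower by 1.43 to 2.94 in 6 of 6 slides, with a mean difference of −2.37 ± 0.60 (SD, n = 6). The exact sign-flip permutation test gave p = 0.03125, the smallest that 6 slides allow, and 0.0455 after adjustment over 16 pairs of probes. In the high scan alone the difference was −1.68 and did not pass (exact permutation test, adjusted p = 0.0833), with both probes at −6.89 on replicate 3.

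PSBQ is an extrinsic protein of the oxygen-evolving complex of photosystem II. Its probe on slide set 1 (15911) ranged from −0.37 to 0.65 with a median of 0.29. The mean was 0.26 ± 0.36 (SD, n = 6) and did not pass (limma adjusted p = 0.147). Slides lay on both sides of 0, 5 of them above it. The PSBQ probe 8736 of slide set 2 ranged from −8.05 to −6.26 with a median of −7.18, and its mean was −7.14 ± 0.59 (SD, n = 6; limma adjusted p = 2.55e-06). The other PSBQ probe there (13393) ranged from −6.78 to −3.02 with a median of −4.71, and its mean was −4.99 ± 1.40 (SD, n = 6; limma adjusted p = 0.000247). Both probes of slide set 2 lay on the seedling side on every slide, with no overlap with the probe of slide set 1. Probe 13393 lay above probe 8736 on 6 of 6 slides, by 2.15 ± 1.24 (SD, n = 6; exact sign-flip permutation p = 0.03125, adjusted 0.0455). In the low scan alone that difference was 1.43 and did not pass (exact permutation test, adjusted p = 0.192).

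Of the antenna genes, lhcb5 encodes a minor antenna protein that links photosystem II to its outer antenna. The means of its 3 probes on slide set 2 lay within 0.35 of one another. Probe 12717 ranged from −6.66 to −5.44, probe 4337 from −6.77 to −5.51 and probe 9963 from −6.64 to −4.92, with medians of −6.31, −5.95 and −5.82. Their means were −6.18 ± 0.48, −6.05 ± 0.46 and −5.83 ± 0.57 (SD, n = 6 each), and limma adjusted p-values were 1.93e-06, 2.89e-06 and 4.40e-06. The ranges of the 3 probes overlapped almost fully. Of the 3 differences between them, that of probe 9963 over probe 4337 passed at 0.22 ± 0.20 (SD, n = 6; exact sign-flip permutation p = 0.03125, adjusted 0.0455), and it turned to −0.24 in the high scan alone. The differences of probe 12717 from probes 4337 and 9963 were −0.13 ± 0.39 and −0.35 ± 0.46 (SD, n = 6) and did not pass (exact permutation test, adjusted p = 0.467 and 0.179). Without replicate 4 the difference of probe 9963 over probe 4337 was 0.14.

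On slide set 1 the lhcb5 probes did not lie together. Probe 17293 ranged from −6.70 to −4.01 with a median of −6.29, and its mean was −5.91 ± 0.99 (SD, n = 6; limma adjusted p = 1.63e-05). Probe 14324 ranged from −1.92 to −0.62 with a median of −0.92, and its mean was −1.04 ± 0.46 (SD, n = 6; limma adjusted p = 0.00168). Both passed on the seedling side, without overlap between them. Within a slide they differed by −4.87 ± 0.89 (SD, n = 6), from −5.64 to −3.19, with probe 17293 the lower on 6 of 6 slides (exact sign-flip permutation p = 0.03125, adjusted 0.0455). The 3 lhcb5 probes of slide set 2 thus had means beside that of probe 17293, and probe 14324 stood apart.

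Another minor antenna protein is encoded by lhcb6, whose 4 probes on slide set 2 fell on both sides of 0. Probe 12769 ranged from −9.75 to −5.21 with a median of −6.80, and its mean was −6.89 ± 1.69 (SD, n = 6; limma adjusted p = 1.68e-05). Probe 2044 ranged from −6.27 to −5.01 with a median of −5.68, and its mean was −5.65 ± 0.43 (SD, n = 6; limma adjusted p = 2.55e-06). Both passed on the seedling side, and their difference of −1.24 ± 1.32 (SD, n = 6) did not pass (exact sign-flip permutation test, adjusted p = 0.0769). In the low scan alone that difference was −1.86 and passed (exact permutation test, adjusted p = 0.0455).

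The lhcb6 probe 5190 ranged from 1.39 to 2.25 with a median of 1.66. Its mean was 1.71 ± 0.31 (SD, n = 6), on the SAM side on every slide (limma adjusted p = 5.54e-05). Probe 3139 ranged from 0.03 to 1.33 with a median of 0.58, and its mean of 0.58 ± 0.44 (SD, n = 6) also passed on the SAM side (limma adjusted p = 0.0238). That call was lost without replicate 2, 5 or 6, at 0.56, 0.58 and 0.56, and when only slides with SAM in Cy3 were used, at 0.68. The 2 probes on the SAM side shared no part of their ranges with the 2 on the seedling side. Each of the 4 differences across the 2 sides had the same sign on 6 of 6 slides, with means between 6.24 and 8.60 in size (exact sign-flip permutation p = 0.03125, adjusted 0.0455). A mean over the 4 probes, −2.56 ± 0.45 (SD, n = 6), lay near none of them.

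Cab-m7 encodes a chlorophyll a/b-binding protein of the antenna. The platform annotation gives it a gene ID that the newer gene table does not hold, where the same name stands for another gene, so which gene these 4 probes report is less certain than for the other members. On slide set 1 probe 14820 ranged from 0.25 to 2.75 with a median of 0.81. Its mean was 1.09 ± 0.92 (SD, n = 6), on the SAM side on every slide (limma adjusted p = 0.00552), and replicate 6 stood highest. The mean was 0.44 over the 3 slides with SAM in Cy3, where it did not pass (limma adjusted p = 0.0935), and 1.74 over the 3 with SAM in Cy5.

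The Cab-m7 probe 8852 of slide set 2 ranged from −9.46 to −6.36 with a median of −7.20, and its mean was −7.48 ± 1.06 (SD, n = 6; limma adjusted p = 7.40e-06). Probe 12875 ranged from −7.16 to −3.67 with a median of −5.33, and its mean was −5.31 ± 1.23 (SD, n = 6; limma adjusted p = 1.98e-05). Its scans disagreed within slides, as on replicate 6, at −3.99 in the low, −2.98 in the medium and −11.08 in the high scan. With the median of the scans its ratio was −4.16 (limma adjusted p = 0.00309). The difference of probe 12875 over probe 8852, 2.16 ± 1.98 (SD, n = 6), did not pass (exact sign-flip permutation test, adjusted p = 0.0769). Probe 7146 ranged from −0.43 to 0.59 with a median of −0.07 and did not pass, at −0.04 ± 0.38 (SD, n = 6; limma adjusted p = 0.834). The first 2 probes lay on the seedling side on every slide and below probe 7146 on 6 of 6 slides, by 7.44 ± 1.29 and 5.28 ± 1.06 (SD, n = 6; exact sign-flip permutation p = 0.03125, adjusted 0.0455).

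L-FNRII encodes a leaf ferredoxin-NADP reductase, the enzyme at the end of the electron transport chain. Its probe 6289 ranged from −8.04 to −6.39 with a median of −6.94, and its mean was −7.06 ± 0.63 (SD, n = 6; limma adjusted p = 4.02e-06). Probe 6299 ranged from −9.40 to −5.78 with a median of −6.56, and its mean was −6.86 ± 1.33 (SD, n = 6; limma adjusted p = 3.30e-05). Both lay on the seedling side on every slide, and the range of the first fell within that of the second. Their difference was 0.20 ± 0.78 (SD, n = 6; exact sign-flip permutation p = 0.5625, adjusted 0.5625), and it lay between −1.36 and 0.68 on single slides.

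In the order of the means on slide set 2, psad1 probe 9896 was followed by Cab-m7 probe 8852, 0.74 higher, which was more than the SD of the difference over slides (0.50). Each of the next 11 steps in that order, from Cab-m7 probe 8852 to PSBQ probe 13393, was smaller than its own SD. These steps are between neighbours in a sorted order, and probes farther apart in it can differ, as PSBQ probes 8736 and 13393 did by 2.15. Genes of photosystem I, photosystem II, the antenna and the reductase were interleaved over that stretch, from −7.48 to −4.99. The step from PSBQ probe 13393 to Cab-m7 probe 7146 was 4.95 with an SD of 1.29, and it divided the 13 probes on the seedling side from the other 3. On slide set 1 the widest step, 4.87 with an SD of 0.89, lay between lhcb5 probes 17293 and 14324.

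Of 16 pairs of probes of the same gene on the same slide set, 11 differed with an adjusted p of 0.0455 in the exact sign-flip permutation test and 5 did not pass. The 11 include pairs on opposite sides of 0 and pairs, such as those of psad1 and PSBQ on slide set 2, that lay on the same side at different distances. In the medium scan alone and with the median of the scans, 10 of the 11 had an adjusted p of 0.05, which does not pass, and 6 slides cannot give a lower p for a pair. None of the 11 passed in the high scan alone either. The adjusted p depends on how many of the 16 pairs reach the smallest p, so a lost call need not mean a smaller difference. In the high scan the lhcb6 probes 5190 and 3139 lay at 1.70 and 0.62, and probes 12769 and 2044 at −5.75 and −4.76. In the low scan alone the PSBQ pair was the only one of them to lose its call. What differs between the probes of a gene was not tested.

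The same RNA pairs were hybridised to both slide sets, so 4 genes could be compared between them, each as the mean of its probes on a slide. PSBQ was 0.26 ± 0.36 on slide set 1 and −6.07 ± 0.87 on slide set 2 (SD, n = 6 each), a difference of −6.33. Cab-m7 was 1.09 ± 0.92 and −4.28 ± 0.42 (SD, n = 6 each), a difference of −5.37. Its value on slide set 2 averages probes that lay far apart, at −7.48, −5.31 and −0.04. The size of the Cab-m7 difference therefore depends on which of these probes are taken. lhcb5 was −3.47 ± 0.63 and −6.02 ± 0.46 (SD, n = 6 each), a difference of −2.55. The value of slide set 1 is the mean of probe 17293, at −5.91 and beside the 3 probes of slide set 2, and probe 14324, at −1.04, so it lies near neither. In these 3 genes all replicates were lower on slide set 2, and the exact permutation test of 6 slides against 6 gave the smallest p it can reach, 0.00216, adjusted 0.00289 over the 4 genes. Paired by replicate number, the exact sign-flip permutation test gave p = 0.03125, adjusted 0.0417.

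psad1 differed the other way, at −10.01 ± 2.72 on slide set 1 and −7.03 ± 0.69 on slide set 2 (SD, n = 6 each), a difference of 2.98 (exact permutation test, adjusted p = 0.0108). Paired by replicate number the call was lost (exact sign-flip permutation test, adjusted p = 0.0625), and psad1 was lower on slide set 2 in 1 of 6 replicates. Without replicate 6, whose slide gave −14.99 on slide set 1, the difference was 1.91. The spots of a gene on the 2 sets are different ones, so each difference sets probes as well as slides against each other.

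The strongly negative ratios moved with the scan. Each slide was deposited as a low, a medium and a high scan of laser power and gain. Of the member probes below −2, all 4 on slide set 1 and all 13 on slide set 2 had a more negative mean in the low scan than in the high scan. Among all probes that passed and lay below −2, 90.5% of 1702 and 90.1% of 1097 did so. The median of low minus high was −3.42 for the members and −0.85 for these probes on slide set 1, and −1.59 and −0.40 on slide set 2.

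The largest such shifts were those of psah1 and psan1 on slide set 1. The psah1 probe went from −12.03 ± 2.04 (SD, n = 6) in the low scan to −9.11 ± 2.21 in the medium and −7.40 ± 0.55 in the high scan. The psan1 probe went from −11.11 ± 3.22 to −7.88 ± 0.79 and −7.11 ± 0.44 (SD, n = 6 each). The psad1 probe went from −11.79 ± 2.54 to −9.09 ± 3.20 and −9.15 ± 3.62 (SD, n = 6 each), and a single high scan reached −16.3, beside a full range of 16 log2 units in a 16-bit image. In the high scan alone the spread of psah1 and psan1 between slides was thus smaller, and their means were less negative by 2.11 and 1.59 than over all scans.

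The lhcb5 probe 17293 shifted alike on all 6 slides, from −7.27 ± 0.85 to −6.03 ± 1.14 and −4.43 ± 1.03 (SD, n = 6 each), with a low minus high difference of −2.84 ± 0.30. On slide set 2 the Cab-m7 probe 12875 went from −8.02 ± 2.21 to −3.67 ± 2.76 and −4.26 ± 3.36 (SD, n = 6 each), the widest spread of a member of that set in the medium and high scans. Probes near or above 0 moved little, as for lhcb6 probe 5190 at 1.75 ± 0.30, 1.67 ± 0.31 and 1.70 ± 0.33 (SD, n = 6 each). Cab-m7 probe 14820 was an exception, at 1.75 ± 1.69 in the low and 0.72 ± 0.60 (SD, n = 6 each) in the high scan. The part of either channel in these shifts was not tested. In each scan alone the same number of member probes passed in each direction, 5 and 13 on the seedling side and 1 and 2 on the SAM side.

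**Figure D3:**
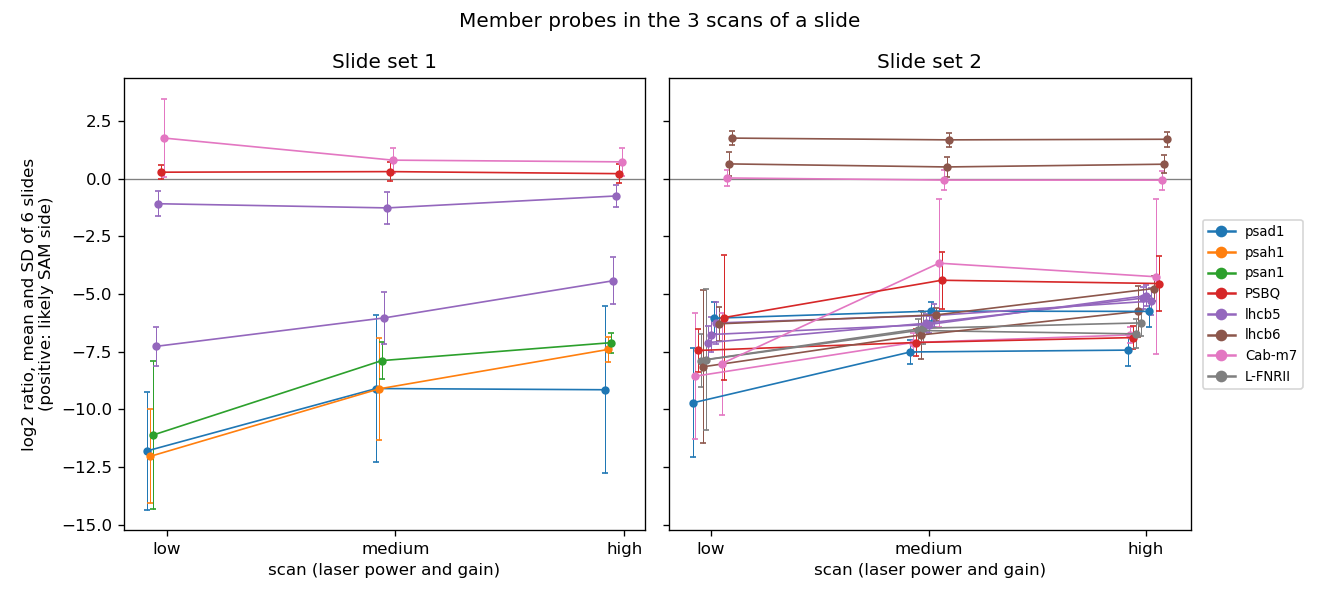
Mean log2 ratio of each member probe (y axis; bars are the SD of 6 slides) in the low, medium and high scan (x axis), coloured by gene, for slide set 1 (left) and slide set 2 (right). The strongly negative probes rise from the low to the high scan, as psah1 from −12.03 to −7.40, and those near or above 0 move little apart from Cab-m7 probe 14820.

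The dye of SAM gave no call among the members. Its term passed for 0 of 7 and 0 of 16 member probes in limma, where 12.7% and 8.41% of all probes passed, and the lowest adjusted p was 0.0813, for lhcb6 probe 12769. At an unadjusted p of 0.05 the dye term passed for 2 and 3 member probes. That probe lay at −8.18 with SAM in Cy3 and −5.61 with SAM in Cy5, over 3 slides each. The calls on the seedling side were made in either orientation alone, for 5 of 7 and 13 of 16 probes.

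Other genes of the light reactions were few on these slides. On slide set 1, 4 of 5 such probes passed on the seedling side in limma, and 1 did not pass. Left out of this count were 5 probes of fdx3, hcf106 and ATPB, genes that share a name pattern with the light reactions and have other roles. Their median was −0.25, and 2 of the 5 passed, both toward the seedling, whereas 3 of 4 such probes did on slide set 2, where the median was −1.10. psbs1, whose protein is needed to dissipate excess light energy, had probes at −7.05 ± 1.06 and −4.83 ± 0.94 (SD, n = 6 each). A probe of L-FNRI, a related reductase gene, lay at −5.50 ± 0.71 (SD, n = 6). The ferredoxin gene fdx2 had a probe at −12.28 ± 1.78, more negative than any member, and another at 0.03 ± 0.65 (SD, n = 6 each; limma adjusted p = 0.843 for the latter). On slide set 2 both measured probes passed on the seedling side, psbs1 at −2.75 ± 0.37 and L-FNRI at −1.41 ± 0.19 (SD, n = 6 each), closer to 0 than the members' median.

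The mature leaf markers given above with the direction of the ratio are genes of carbon fixation, and their medians were −4.72 over 6 probes on slide set 1 and −5.40 over 15 on slide set 2. A list of carbon fixation and chlorophyll synthesis genes added 0 probes to them on slide set 1 and 3 on slide set 2, which all passed on the seedling side in limma. These were gpa1, a plastid glyceraldehyde phosphate dehydrogenase, at −0.89 ± 0.39, oy1, of chlorophyll synthesis, at −4.75 ± 0.98, and por, of the light-dependent step of that synthesis, at −6.80 ± 1.08 (SD, n = 6 each). The leaf markers include rbcS, the small subunit of Rubisco, at −6.21 ± 1.27 and −5.20 ± 0.42 (SD, n = 6 each) on slide set 1 and at −5.64 ± 0.40 (SD, n = 6) on slide set 2. Ppdk1, which encodes the enzyme that regenerates phosphoenolpyruvate in C4 leaves, had 6 probes on slide set 2 between −7.73 and −0.31, the last of which did not pass (limma adjusted p = 0.0566). Probes of one gene were thus spread in Ppdk1 as they were in lhcb6 and Cab-m7 on slide set 2. Those of rca1 on slide set 2 were spread too, from −7.18 to −0.82. Other genes of the list had probes close together, as mdh6 at −5.20, −5.19 and −5.58 on slide set 2 and ME1 at −4.23 and −4.13 on slide set 1.

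The named genes whose values over the 6 slides were nearest to the members' median profile were ranked by their root mean square difference from it, over 571 genes on slide set 1 and 446 on slide set 2. On slide set 1 rbcS came first, at 0.71, followed by LOC100037796 at 0.93, gar2 at 0.98, inra1(tmp) at 1.03 and chitinase at 1.09. On slide set 2 the order was glu2, a beta-glucosidase, at 0.26, LOC100125656 at 0.38, rbcS at 0.41, glu1 at 0.72 and LOC541622 at 0.74. rbcS was the one gene among the first 5 on both slide sets. For slide set 1 the median of 7 probes was lhcb5 probe 17293 on every slide, its outlying replicate 2 included, so the ranking there is likeness to that probe alone. This measure of likeness is mostly a measure of level, and the genes share the slides and their shifts.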

How the data were processed

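The values deposited by the authors were taken as natural log ratios of the 2 channels, made from 3 scans of each of 12 slides. The base of the log is not stated and was read from mirrored spots with a channel at its floor. Of 15635 and 2401 pairs compared on the 2 slide sets, 280 and 48 were spaced by 2 natural logs of whole numbers. For log2 such pairs were 55 and 9, and for log10 they were 25 and 4. How many pairs of each kind arise by chance was not computed, and it differs between the bases, so the counts do not settle the base. The largest deposited values, 11.29 and 11.27 in size, exceeded 11.09, the natural log of the 16-bit maximum. That is the most that a ratio of 2 whole 16-bit numbers can reach in natural logs. All log2 values here rest on the natural log reading. Had the deposited values been log2 already, every size given here would shrink by a factor of 0.693. For the authors' normalization and background handling, the sources used here give nothing. Slides of opposite dye orientation correlated positively (Pearson's r 0.597 to 0.861 over probes), so the deposited values already ran one way.

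Values were converted to log2, each scan was centred on its median (column medians lay between −0.08 and 0.06), and a slide was the mean of its 3 scans. Spots without a value (898 and 2001) were left out, and 53 identical spots counted as 1 probe, leaving 18302 and 12027. Names came from the platform annotation (1787 and 753 probes with 1 named gene). In R 4.3.3, lmFit and eBayes of limma 3.58.1 estimated the mean ratio beside a term for dye orientation, and p-values were adjusted by Benjamini-Hochberg over all probes of a set. Tables were handled in Python 3.11.15 with pandas 2.3.3 and numpy 2.4.6, and figures drawn with matplotlib 3.10.9. The limma fit, and no other step, was tested on simulated data, which held no dye effect. Slide sets were tested separately.

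The labels put the same RNA pairs on both slide sets under the same replicate number. The deviations of same-numbered slides from their set's mean correlated by 0.008 to 0.123 over 297 genes. The best-correlated slide of slide set 2 had the same number for replicates 2 and 4, and another number for replicates 1, 3, 5 and 6. Pairing by replicate number therefore rests on the labels. Members and lists were chosen with earlier results of these data known. Named were all member probes, every probe of the light-reaction list with a value, and the 5 nearest genes per set. From the carbon fixation and chlorophyll list, rbcS, Ppdk1, rca1, mdh6, ME1, gpa1, oy1 and por were named, picked after their values were seen. Of the meristem markers kn1 alone was named, since it held the probes that did not pass. Genes matched by name alone (fdx3, hcf106, ATPB and por1) were not counted. Alternatives were no centring, equal spread, each scan, the median of scans, no dye term, robust eBayes, a 2-fold limit, each dye orientation and each replicate left out. The number of slides limits the precision.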

Additional observations from a re-analysis of the deposited data

Results flagged for a closer look

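Of 23 member probes, 3 had a slide far from the other 5 of its set, and chance gives about 1 in 20 such cases. The lhcb5 probe 14324 lay at −1.92 on replicate 5 of slide set 1, below the next slide at −1.03. The lhcb5 probe 17293 lay at −4.01 on replicate 2 of slide set 1, above the next at −5.72. The L-FNRII probe 6299 lay at −9.40 on replicate 3 of slide set 2, below the next at −6.98.

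The log2 ratio of 4 genes differed between the slide sets by the exact permutation test, as set 2 minus set 1. The differences were 2.98 for psad1, −6.33 for PSBQ, −2.55 for lhcb5 and −5.37 for Cab-m7, and that of psad1 did not pass when slides were paired. Each is a difference of means over a gene's probes, which lay far apart for lhcb5 on slide set 1 and Cab-m7 on slide set 2.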

How the results depend on the processing

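Of the 23 member probes, 20 kept their sign and their side of the threshold under all 17 alternatives run. Cab-m7 probe 14820 and lhcb6 probe 3139, both on the SAM side, lost their call in some. Cab-m7 probe 7146, which did not pass in any, lay above 0 in 4, at most at 0.12. With SAM in Cy3 alone, the probes passing on the SAM side were 0 on slide set 1 (also 0 at an unadjusted p of 0.05 in limma) and 1 on slide set 2. A 2-fold limit left 1 on slide set 2, and leaving out 1 replicate gave 1 to 2 there (1 without replicates 2, 5 or 6). Counts on the seedling side stayed at 5 and 13 throughout. With the replicate block the psad1 difference between slide sets, 2.98, no longer passed (exact sign-flip permutation test, adjusted p = 0.0625), and the block changed no other call. The difference of lhcb5 probe 9963 over probe 4337 turned to −0.24 in the high scan alone. The 16 differences between probes were tested again under each of several alternatives, and a case below is 1 difference under 1 alternative. A call was lost in 33 cases with a scan alone or the median of scans. Of these cases, 29 had an adjusted p of 0.05 in the exact permutation test. With a replicate left out it was lost in 66 cases, which are all the differences that had passed, in every such run. The reason is that 5 slides cannot give an exact permutation p under 0.0625. Medians of scans or probes were chosen after seeing the data. No intensities were used here, so signal over background is unknown.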
